A study of Mus musculus with 6 samples.

Results

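Neurospheres grown from the adult subventricular zone of control offspring were read on 3 microarrays, and their baseline expression is described here gene by gene. The members are the 3 arrays of the PBS group, out of 6 arrays in the series, and on them the 22180 genes that have a probe set of their own among 41345 probe sets. The PBS animals were adult offspring of CD1 mice, aged 2 months, whose mothers had been injected with PBS into the peritoneum 2 times a day over the later pregnancy, with gestational day 12 as the first day; the other 3 arrays come from offspring of mothers that received methylglyoxal (MG) and are not described. Dissociated cells of the subependymal region grew for 7 days as floating spheres in serum-free medium with 20 ng/ml epidermal growth factor (EGF), 10 ng/ml fibroblast growth factor 2 (FGF2), 2% B27 supplement and 2 µg/ml heparin. From each culture 250 ng of total RNA was labelled for the Affymetrix Mouse Gene 2.0 ST Array. The labels name no litter or sex, and call the spheres primary in the titles but secondary in the descriptions. The series speaks of 3 mice per group, without saying which animal gave which array, so the spread among arrays holds both animal and technical differences. Every account below describes 1 group and carries no test.

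The subventricular zone lines the lateral ventricles and keeps neural stem cells in the adult brain. In the animal, quiescent astrocyte-like stem cells become activated, divide as transit amplifying cells and give rise mostly to neuroblasts that migrate to the olfactory bulb, and to some oligodendrocytes. In a neurosphere, EGF and FGF2 keep the descendants of such cells dividing, so a sphere is a mixture of stem cells, dividing progenitors and some cells that have begun to differentiate. Because the RNA of a whole culture was pooled, a low level from fewer cells of a type and a low level from less RNA per cell cannot be told apart.

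Levels are log2 signals, on which 1 unit is 2-fold. Each probe set has its own response, so a level was read against a common reference and not against another gene's level. The reference on each array was the 95th percentile of 1088 olfactory receptor genes, a family used by sensory neurons of the nose; it was 5.21 on PBS replicate 1, 5.05 on replicate 2 and 5.04 on replicate 3. The median gene lay at 5.90, 5.90 and 5.88 on these arrays, and the median olfactory receptor gene at 2.89, 2.86 and 2.83. A gene is called above the reference if it passed it on all 3 arrays, well above it if it passed by at least 1 log2 unit on all 3, and at or below it if it passed on none.

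Above the reference lay 13084 of the 22180 genes (59.0%), well above it 10090 (45.5%), and at or below it 7723 (34.8%). The remaining 1373 genes (6.19%) passed on only some arrays. Of the olfactory receptor genes 40 (3.68%) were above and 9 well above, with Olfr1360 the highest at 6.98. The reference was set on these same genes, so their small share above it follows from its definition. How lenient the reference is was read from 107 genes of liver, muscle, testis, skin, gut, blood and retina. Of these, 27 (25.2%) lay above it but only 3 (2.8%) well above it: Odf1, a sperm tail gene, at 11.33, the cardiac actin Actc1 at 7.07 and the keratin Krt10 at 6.39. For that reason each count of genes above the reference is given below with the count well above it. At the other end, 147 of 159 genes of ribosomal proteins, proteasome, tRNA synthetases, chaperonin and translation initiation were above and 135 (84.9%) well above. The other 12 were not above on every array. Among them the proteasome subunit Psma5 (4.80) was at or below the reference, and Rps14, Rplp2 and Rps15 passed on only some arrays. A low signal is therefore not read as an absent RNA. The 12 also hold variant genes of these families, such as Rpl10l (2.07) and Psma8 (3.94), and Eif2c5, listed as a long noncoding RNA. These do not bear on that point. A high signal on a single probe set can also stand apart from its family, as for the vomeronasal receptor gene Vmn1r233 at 12.36. Whether the probe sets of Odf1 and Vmn1r233 also read other RNAs was not tested.

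**Figure D1:**
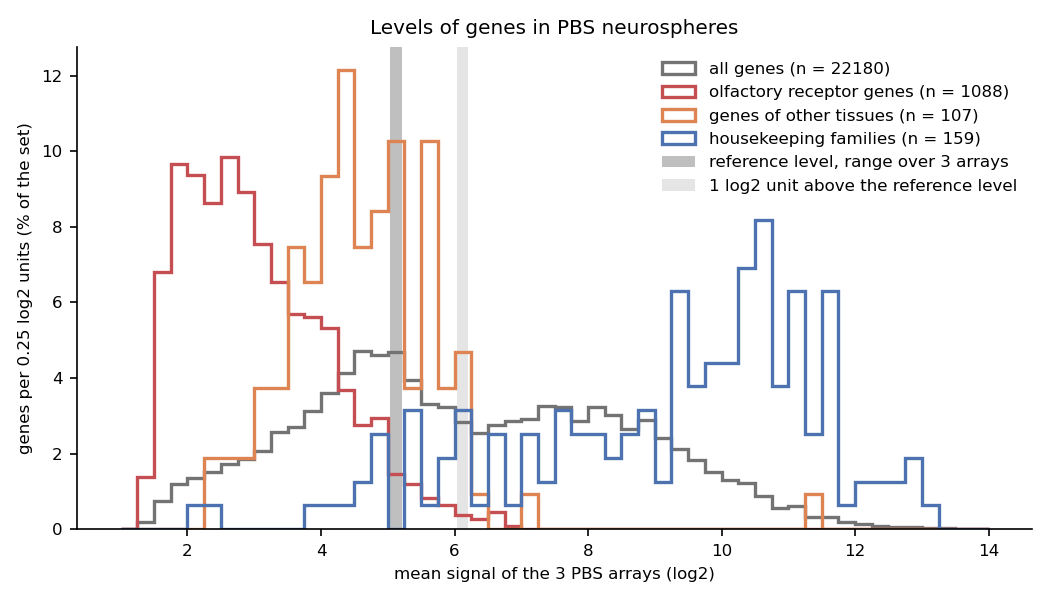
Distribution of gene levels in PBS neurospheres: the x axis is the mean log2 signal of the 3 arrays, the y axis the percentage of each gene set per 0.25 log2 units, and the dark and light bands mark the reference level and 1 log2 unit above it. Olfactory receptor genes lie around 2.87, genes of other tissues around 4.52 with few past the light band, and the housekeeping families mostly to its right.

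The 30 genes with the highest signal lay between 12.72 and 13.66, with a median SD of 0.058 over the 3 arrays. The highest was the small nuclear RNA Rn7sk, which holds back transcription elongation, at 13.71, 13.68 and 13.61. The mitochondrial genome contributed 9, all parts of the respiratory chain: ND4 (13.60), COX1, ND1, CYTB, ND5, ND3, COX3, ND4L and ND2 (13.02). The other mitochondrial gene measured, ND6, lay at 10.83. Protein synthesis was represented by Eef1a1 (13.17), Eif4a1, Rpl21, Rpl29, Rpl28 and Rps6, and energy metabolism by Gapdh (13.19), the brain creatine kinase Ckb (12.98), Cox6a1, the mitochondrial channel Vdac3 and the ATP/ADP carrier Slc25a5. Also among the 30 were the tetraspanin Cd81 (13.39), the RNA binding protein Pcbp2, Hmgcs1, the enzyme that starts sterol synthesis (12.74), Snora33, the gene model Gm12718 and Mir5099 (13.54), whose probe set was likewise not tested for other RNAs. From the neural lists, Fabp7, Vim and Olig2 stood among them. Eif4a1 had the largest spread of the 30, with 13.18 and 13.20 on replicates 1 and 2 and 12.54 on replicate 3.

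The 6 genes set as markers of neurospheres were all well above the reference. Fabp7, the brain fatty acid binding protein of radial glia, read 13.11, 13.22 and 13.18 on replicates 1 to 3, and the intermediate filament vimentin, Vim, 13.20, 13.09 and 13.12. Olig2, a basic helix-loop-helix factor of transit amplifying cells and the oligodendrocyte lineage, read 12.75, 12.67 and 12.81. The EGF receptor gene Egfr read 11.93, 11.81 and 11.84. For Sox2, the factor that maintains neural stem cells, the arrays gave 11.13, 11.17 and 11.18, and for the filament gene nestin, Nes, 10.68, 10.89 and 10.58. On no array did one of these 6 come within 5 log2 units of the reference, and the largest range of any of them was that of Nes.

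Lists of cell type genes ranged from 100% to 0% of members above the reference. Of 30 genes of neural stem cells and radial glia, 28 were above and 26 well above, against 59.0% and 45.5% of all genes. Among protein-coding genes alone, the kind in this list, the shares were higher, 64.2% and 50.9%. The bright ones include the receptor phosphatase Ptprz1 (12.38), the glutamate transporter Slc1a3 (12.02), the nuclear factor Nfib (11.66), Rfx4 (11.33), Sox9 (11.27) and the matrix protein tenascin C, Tnc (11.27). Notch1 (9.12) and its targets Hes5 (8.56) and Hes1 (8.22) were well above as well, as was Nr2e1 (8.09), an orphan receptor required for adult neurogenesis. Gfap, the filament of astrocytes and quiescent stem cells, was above but not well above: 5.95, 6.73 and 6.39. Thbs4 (5.37) was likewise above but not well above, Hopx passed on replicate 2 alone, and Fut4, the enzyme that makes the Lewis X surface epitope, was at or below the reference (4.93).

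All 18 genes of activated stem and transit amplifying cells were above the reference and 17 well above. They include the D cyclins Ccnd2 (12.32) and Ccnd1 (12.12), Cdk4 (11.93), Sox4 (11.12), the proliferation marker Mki67 (10.75), Pcna (10.66), Top2a (10.41) and Dlx2 (7.52). The lowest was Mycn, at 6.29, 6.20 and 6.19. Gsx2, a factor of the lateral ganglionic eminence, read 6.04, 6.25 and 6.83 and was the only member not well above. All 23 measured genes of DNA replication and all 20 of mitosis were well above; the lowest were Ung (6.79) and Birc5 (7.68).

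Neuroblast genes were mixed, with 14 of 20 (70%) above and 8 (40%) well above, against 59.0% and 45.5% of all genes. Ncam1 (11.73), Cd24a (11.44), Sox4 and Sox11 (8.67) were bright, and progenitors carry these too. Dcx, the microtubule protein by which migrating neuroblasts are recognised, named here after its values were seen, read 5.15, 5.54 and 4.55, so it passed the reference on replicate 2 only. Dlx5 (3.92) and Dlx6 (3.88), homeobox genes of the same lineage, were at or below the reference on every array. Of 29 genes of mature neurons 17 (58.6%) were above and 8 (27.6%) well above, against 59.0% and 45.5% of all genes. They were led by the microtubule protein Map2 (11.39), the growth cone protein Gap43 (8.84), Snap25 (8.50) and the synaptic vesicle protein Syn1 (8.30). Genes that mark interneurons were divided: the peptide gene Sst (6.22) was well above, Npy (5.69) and the GABA vesicle transporter Slc32a1 (5.50) above, and Calb1 (3.97) and Vip (3.68) the lowest of the list.

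Genes of astrocytes and oligodendrocyte precursors were well represented. Of 25 astrocyte genes 23 were above and 19 well above, among them the aldolase Aldoc (12.24), Mlc1 (10.98), Aldh1l1 (10.92), glutamine synthetase, Glul (10.91), the potassium channel Kcnj10 (10.47) and connexin 43, Gja1 (10.19). Aqp4, the water channel of astrocyte endfeet, read 9.84 and 10.08 on replicates 1 and 2 and 8.61 on replicate 3. Connexin 30, Gjb6, was at or below the reference (4.33), and Gli1 passed on replicate 3 alone. All 15 genes of oligodendrocyte precursors were above and 14 well above: besides Olig2, Olig1 (12.53), Sox8 (10.56), brevican, Bcan (10.10), the PDGF receptor Pdgfra (9.94), Gpr17 (9.57), the proteoglycan Cspg4 (8.46), Sox10 (7.77) and Nkx2-2 (7.52) belong here. Genes of the myelinating stage were lower in number, with 12 of 16 (75%) above and 7 (43.8%) well above. The shares among all genes were 59.0% and 45.5%, so the share well above was near that of all genes. Ugt8a (9.12) and Cnp (8.55), enzymes of myelin lipid and membrane, were well above. So were Cldn11 (7.37), Bcas1 (7.20), Mobp (6.55), Myrf (6.35) and Nkx6-2 (6.26). Myelin basic protein, Mbp (6.08), and Mog (5.60) were above but not well above. Mag and Opalin passed on only some arrays, and Ermn (4.19) was at or below the reference.

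**Figure D2:**
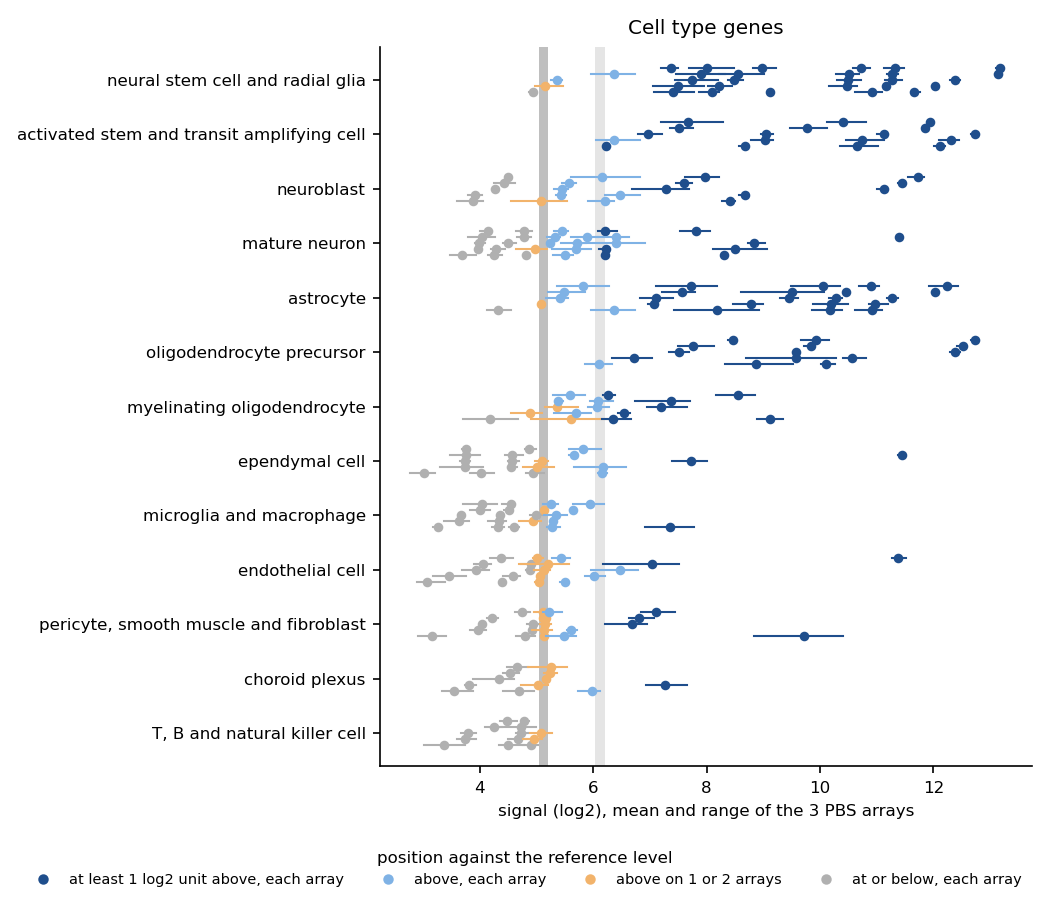
Signal of cell type genes on the PBS arrays: each point is a gene's mean log2 signal of 3 arrays, each bar its range, the dark and light bands the reference level and 1 log2 unit above it, and colour the position of the gene against them. The rows of neural stem cells, activated cells, astrocytes and oligodendrocyte precursors lie mostly right of the light band, while those from ependymal cells down lie mostly at or left of the dark band.

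Cell types that could be carried over from the dissection showed few genes well above the reference. Ependymal cells, the ciliated lining of the ventricle, had 6 of 19 genes above and 2 well above: Cd24a, which neuroblasts share, and Foxj1 (7.73), the master factor of motile cilia. The cilium genes Rsph1 (6.17), Ccdc153 (6.16), Dynlrb2 (5.82) and Tekt1 (5.65) were above but not well above, while Mia (3.74) and Pifo (3.01) were the lowest of the list. Of 21 genes of microglia and macrophages 7 were above and only Cd68 (7.35), a lysosomal protein, well above; Ptprc, the pan-leukocyte surface phosphatase CD45, was lowest at 3.25. Of 20 endothelial genes 6 were above and 2 well above, the lipid transporter Mfsd2a (11.37) and the VEGF receptor Flt1 (7.04), while Emcn (3.46) and Ly6c1 (3.07) were lowest. Pericyte, smooth muscle and fibroblast genes gave 7 of 21 above and 4 well above. The smooth muscle actin Acta2 was the brightest of them with 9.92, 10.40 and 8.83, followed by Tagln (7.10), the collagen Col1a1 (6.81) and Pdgfrl (6.68); Dcn (3.96) and Lum (3.15), proteoglycans of fibroblasts, were lowest. Of 12 choroid plexus genes Car12 (7.27) was well above and Otx2 (5.97) above, and none of 13 genes of T, B and natural killer cells was above. Transcripts of the Y chromosome, Eif2s3y (9.41), Uty (8.31) and Kdm5d (8.02), were well above the reference on each array and Xist, which coats an inactive X, was at or below it (3.71); the 3 arrays shared this pattern.

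Transcription factor families differed in how many members passed. The Sox family, HMG box factors that run neural and glial fates, had 16 of 19 above and 14 well above. These were Sox9 (11.27), Sox2 (11.16), Sox4 (11.12), Sox8 (10.56), Sox6 (10.00), Sox3 (8.94), Sox21 (8.67), Sox11 (8.67), Sox1 (8.63), Sox5 (7.95), Sox10 (7.77), Sox13 (6.89), Sox14 (6.71) and Sox12 (6.51). Of the factors of blood vessels, Sox17 (5.50) was above and Sox7 (4.47) and Sox18 (4.37) at or below; Sox30 (5.21) was above and Sox15 (4.63) at or below. Of the class III Pou factors of the developing brain, Pou3f3 (10.39), Pou3f4 (8.43), Pou3f2 (7.62) and Pou3f1 (7.48) were well above, while of the sensory neuron genes Pou4f3 (5.18) was above and Pou4f1 (4.67) at or below. All 4 nuclear factor I genes, all 4 Id genes, which block helix-loop-helix factors, and all 8 E2f genes were well above. Of the Hes and Hey repressors 8 of 9 were above and 5 well above, with Hey1 at 9.70.

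Among helix-loop-helix factors of neurogenesis, 8 of 17 were above and 6 well above: Olig2, Olig1 and the common partner proteins Tcf12 (10.98), Tcf4 (10.93) and Tcf3 came first, and Neurod6 (4.03) and Ascl3 (3.93) last. In the Pax family, Pax6 read 7.07, 7.35 and 7.79 and was the 1 member of 9 well above. Six3 (7.46) held that place among 5 homeobox genes of its family, and Dlx2 (7.44, 7.35 and 7.76) among 5 Dlx genes; Dlx5 and Dlx6 were named above as low. The Forkhead family had 28 of 43 above but 13 well above, led by Foxk2 (9.60) and Foxn3 (8.64), with Foxm1, a factor of dividing cells, at 8.12, 8.46 and 9.22. Of 24 Ets factors 17 were above and 14 well above, led by Etv1 (10.47) and Etv5 (10.24), which respond to growth factor signalling. Of 17 Klf genes 14 were above and 12 well above. In the AP-1 family all 6 were well above, with Jun at 10.43 and Fos at 9.53, 9.43 and 10.40.

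Genes that mark position along the neural tube were also unequal. Of 24 forebrain and subventricular zone factors 18 were above and 13 well above, led by Meis2 (11.06), Etv1, Lhx2 (9.00) and Nr2e1, with Tbr1 (4.50) and Lhx8 (4.11) the lowest. Of 27 factors of midbrain, hindbrain and spinal cord 11 were above and 2 well above, Dbx2 (9.08, 9.20 and 8.24) and Lmx1b (6.30). Of 36 Hox genes, which pattern the trunk and hindbrain, 6 were above and 0 well above. The highest of them, Hoxa4, had 6.19, 6.35 and 6.03, and the lowest were Hoxc5 (3.18) and Hoxb2 (3.14). Pluripotency genes gave 4 of 16 above, Klf4 (7.02) well above and Klf2, Tbx3 and Lin28a above; Nanog and Pou5f1 passed on some arrays only. Of 18 factors of mesoderm and endoderm 8 were above, a share of 44.4% that is below the 59.0% of all genes, and only Nkx2-5 (7.00) was well above.

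**Figure D3:**
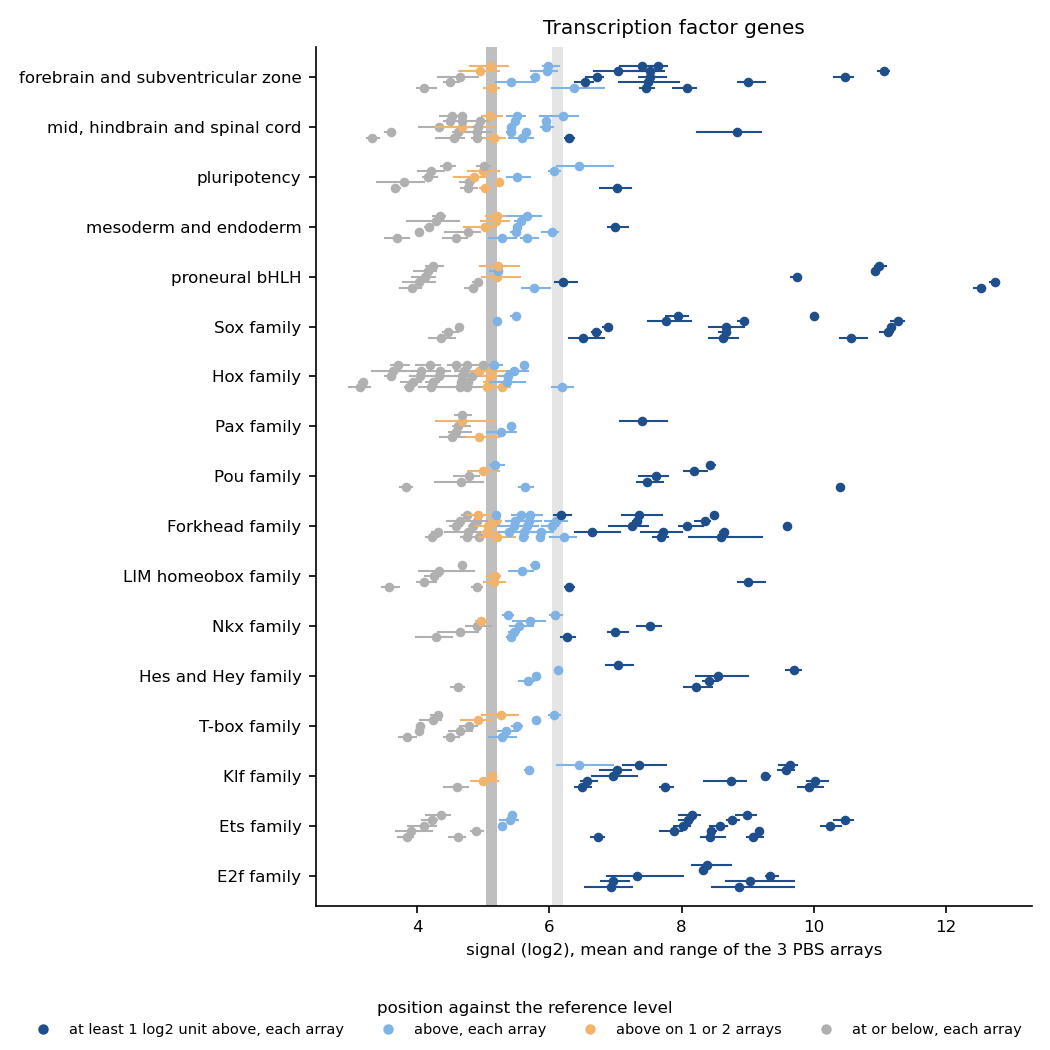
Signal of transcription factor genes on the PBS arrays, by family or role: points are means of 3 arrays (log2), bars their range, bands the reference level and 1 log2 unit above it. Sox, Klf, Ets and E2f genes lie mostly right of the light band, and no Hox or T-box gene is coloured as well above the reference.

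Receptors for both growth factors in the medium were above the reference, and Egfr was the brightest gene of its class. Of 40 growth factor receptor tyrosine kinases 28 (70%) were above and 22 (55%) well above. These shares are near the 64.2% and 50.9% of protein-coding genes. In the EGF receptor family, Egfr was at 11.86, the neuregulin receptor Erbb4 at 9.32, 9.17 and 8.39, and Erbb2, the partner without a ligand of its own, at 7.40, whereas Erbb3 was at or below the reference (4.86). In the FGF receptor family, Fgfr1 (9.05), Fgfr3 (8.79) and Fgfr2 (8.01) were well above and Fgfr4 (5.23) just above. The receptors of insulin, Insr (8.28), and insulin-like growth factor, Igf1r (8.13), were well above and the related Insrr (4.42) was not above. The neurotrophin receptors Ntrk3 (9.66) and Ntrk2 (9.07) were well above. Of the PDGF receptors, Pdgfra was well above and Pdgfrb, the pericyte form, passed on replicates 2 and 3 only. Kit (7.69) and Axl (8.23) were well above, and Met (4.79), Flt3 (4.47), Tek (3.93) and Ros1 (3.77) at or below.

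Receptors of developmental signals gave 29 of 33 above and 27 well above. The type II BMP receptor Bmpr2 (11.63) and both type I receptors, Bmpr1a (9.08) and Bmpr1b (8.48), were well above. Of the hedgehog pathway, the transducer Smo (10.70), the receptor Ptch1 (9.68) and the co-receptors Cdon (9.47), Gas1 (8.69) and Boc (6.98) were well above. All 4 Notch genes were well above: Notch1 (9.12), Notch2 (8.53), Notch3 (7.97) and Notch4 (6.56). Of the Wnt receptors, Fzd3 (10.30), Lrp6 (9.85), Lrp5 (8.70) and Fzd1 (8.27) were well above, and Fzd6 passed on replicate 3 only. Acvrl1 (4.87), an endothelial receptor of the same superfamily as the BMP receptors, and Acvr1c (4.04) were at or below the reference.

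Neurotransmitter receptors fell into classes with many and with few members above the reference. Ionotropic glutamate receptors had 13 of 16 above and 12 well above. The AMPA receptor subunits Gria2 (11.02), Gria3 (10.45), Gria1 and Gria4 (6.59) were all well above, as were Grik2 (8.79) and Grik5 (8.58) of the kainate class. Of the NMDA class, Grin3a (7.72), Grin2c (7.53) and Grin2b (6.84) were well above and Grin2d (4.97) and Grin2a (4.71) at or below; Grin1, the subunit that every NMDA receptor needs, was not analysed here. Of 19 GABA-A and glycine receptor genes 8 were above and 4 well above: Gabrg1 (9.98), Glrb (9.13), Gabra2 (6.98) and Gabra4 (6.23). Gabra6, a subunit of cerebellar granule cells, was lowest at 2.49. The metabotropic receptors Gabbr1 (10.69), Grm3 (10.27) and Grm5 (9.63), known from astroglia and progenitors, were well above. Of 41 receptors for monoamines and acetylcholine, 14 were above and 6 well above, among them Chrna4 (8.54), Chrna7 (7.24) and Chrm3 (7.15); of the dopamine receptors Drd5 (5.47) was above, Drd2 passed on replicate 2 only, and Drd1 (4.38), Drd3 (4.83) and Drd4 (4.69) were at or below. The ATP-gated channel P2rx7 (10.07) led 15 purine receptors, of which 8 were above and 4 well above.

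Of 44 nuclear receptors 29 (65.9%) were above and 21 (47.7%) well above, near the 59.0% and 45.5% of all genes. They were led by Rorb (10.88), Nr4a1 (9.94) and the glucocorticoid receptor Nr3c1 (9.07). The retinoid receptors differed: Rara (7.38), Rxra (7.10) and Rxrb (6.88) were well above, Rarg (5.95) above, Rarb passed on replicates 1 and 2 and Rxrg (4.59) was at or below. Of the estrogen and progesterone receptors, Esr2 (5.76) was above, Esr1 passed on replicate 1 only and Pgr (4.38) was at or below. Integrin subunits had 15 of 25 above (60%) and 10 well above (40%), again near the shares of all genes. Itgb1 (11.42), Itgb8 (11.35), Itgav (11.09), Itgb5 (10.46) and Itga6 (10.46) bind laminin, vitronectin or latent TGF-beta. Of the leukocyte subunits Itgb7 was above, Itgb2 passed on replicates 1 and 2, and Itgal (4.76), Itgam (4.36) and Itgax (4.01) were at or below. Of 31 cytokine receptors, with shares near those of all genes, 17 (54.8%) were above and 12 (38.7%) well above. The 3 that make up the receptor of ciliary neurotrophic factor, Il6st (9.96), Cntfr (9.32) and Lifr (9.17), were among these, with the interferon receptors Ifnar1 (10.50), Ifnar2 (8.68), Ifngr1 (8.52) and Ifngr2 (8.99). The leptin receptor Lepr (2.73) and the interleukin 7 receptor Il7r (2.57) were the lowest.

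Most metabolic lists had larger shares above the reference than all genes, and several isozymes known from other tissues were at or below it. Glycolysis and lactate transport had 23 of 29 above and 19 well above. For glucose uptake, Slc2a1 read 11.44, 10.96 and 10.17 and Slc2a3 9.26, 8.95 and 8.12; the liver transporter Slc2a2 passed on some arrays only and the insulin-responsive Slc2a4 (5.39) was just above. Of the hexokinases, Hk1 (8.08) and Hk2 (7.85) were well above and Hk3 (4.76) at or below. All 3 phosphofructokinases were well above, with Pfkl at 10.40, 9.97 and 8.89. Aldoc (12.24), Tpi1 (11.31), Pgk1 (12.44), Pgam1 (11.15), Eno2 (7.68) and Pkm (12.60) covered the lower pathway and were well above. Another enolase gene, Eno3 (6.95), was well above too, and Pgam2 passed on only some arrays. Of the sperm enzymes Pgk2 was at 2.79 and Gapdhs just above at 5.71, and the liver and red cell enzyme Pklr was at 5.60. Of the lactate dehydrogenases Ldhb (9.30) and Ldha (7.20) were well above and the testis form Ldhc (4.97) at or below. Aldoa, Eno1 and Gpi1 were not analysed here.

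In the mitochondrial pathways few members were low. Of 24 genes of pyruvate dehydrogenase and the citrate cycle 23 were well above, from Cs (12.23) and Mdh2 (11.94) to Suclg1 (8.31), and the exception was Pdha2 (4.06), the testis form of Pdha1 (10.46). Of 30 nuclear genes of the respiratory chain 28 were above and 26 well above. Subunits with alternative forms differed in position. The general forms Cox6a1 (12.95), Cox7a2 (9.73), Cox4i1 (9.64) and Cox8a (11.59) were well above, as was Cox4i2 (6.24), another form of Cox4i1. The muscle forms Cox6a2 (5.75) and Cox7a1 (5.84) were above but not well above, and Cox8b (4.05) and Cox8c (3.11) at or below. Among creatine kinases, Ckb was at 12.98 and the mitochondrial Ckmt1 at 8.71, 8.57 and 6.83, while the muscle forms Ckm (5.06, 5.17 and 4.92) and Ckmt2 (3.96) were not above on all arrays. In glycogen and glucose metabolism Gys1 (9.98), Pygb (9.46), Pck2 (7.93) and G6pc3 (8.33) were well above. The forms known from liver or muscle were divided: Pygm (6.40), Pygl (5.89), Pck1 (5.64) and Fbp2 (5.43) were above but not well above, Fbp1 passed on only some arrays, and Gys2 (4.16) and G6pc (4.37) were at or below.

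Lipid synthesis was bright. Of 18 genes of cholesterol synthesis 17 were well above, from Hmgcs1 (12.81, 12.64 and 12.77) through Nsdhl (11.52), Fdft1 (11.39) and Dhcr7 (11.20) to Hsd17b7 (8.54), and Idi2, the muscle isozyme of an isomerase, passed on replicates 2 and 3. Of 19 genes of fatty acid synthesis and desaturation 14 were well above, led by Fads2 (12.38), Elovl6 (11.98), Scd1 (11.85) and Fasn (11.35); Acacb (4.16), Scd3 (4.85) and Elovl3 (4.34), known from oxidative tissues or skin, were at or below. All 14 genes of fatty acid oxidation were above and 13 well above, including Hadha (11.30) and the carnitine transferases Cpt1c (10.17) and Cpt1a (10.06); the exception was Hadhb (5.64), which encodes the partner subunit of Hadha. Every one of 14 genes of serine, glycine and folate metabolism and of 17 genes of nucleotide synthesis was well above, for example Shmt2 (11.22), Psat1 (10.51) and Rrm1 (10.78). For ketone bodies, Acat1 (11.32) and Oxct1 (10.52), which break them down, were well above. The enzymes that remove methylglyoxal, the compound given to the mothers of the other group, were well above as well: Glo1 at 10.51, 10.50 and 10.59, Hagh at 7.47, 7.29 and 7.32, and Park7 at 7.95, 8.01 and 7.87.

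**Figure D4:**
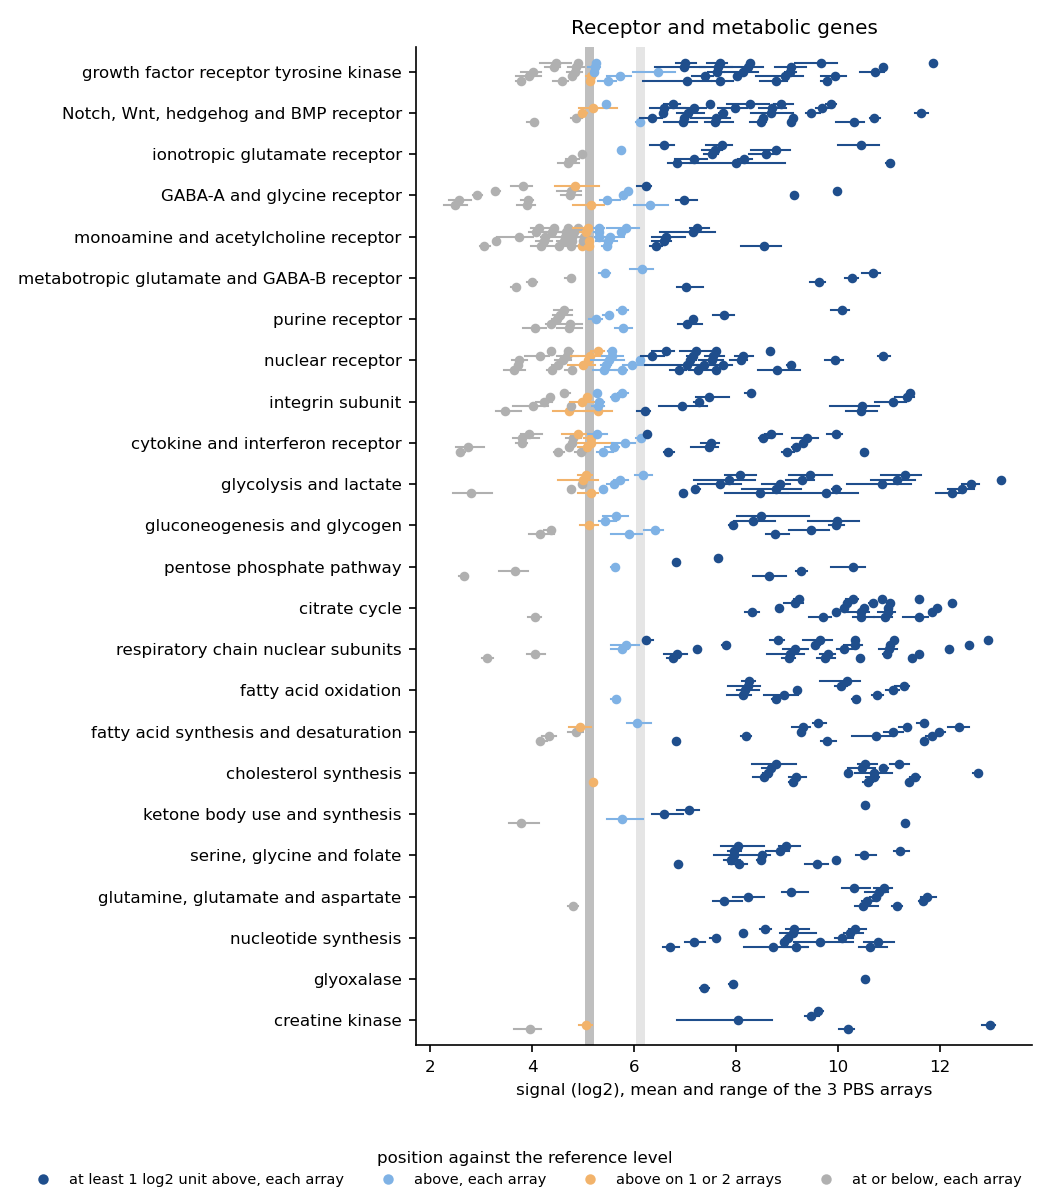
Signal of receptor and metabolic genes on the PBS arrays, by class or pathway: points are means of 3 arrays (log2), bars their range, bands the reference level and 1 log2 unit above it. In the citrate cycle, nucleotide synthesis and serine rows nearly every point lies right of the light band, while the rows of monoamine, purine and GABA-A receptors lie on both sides of it.

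MicroRNAs are short RNAs that pair through their seed, bases 2 to 8, with target messages. The loci below were chosen after their values were seen, to show brain, stem cell and muscle or liver types side by side, and the mature sequences are those of RefSeq, mouse build GRCm38.p6, written 5′ to 3′ with the seed in capitals. A probe set of this array reads RNA from the locus and not the mature form alone.
miR-9-5p: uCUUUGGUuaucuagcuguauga
miR-181b-5p: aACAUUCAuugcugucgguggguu
miR-181c-5p: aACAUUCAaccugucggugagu
miR-181d-5p: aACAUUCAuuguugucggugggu
miR-92b-3p: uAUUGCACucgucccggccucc
miR-219a-5p: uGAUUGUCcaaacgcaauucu
miR-17-5p: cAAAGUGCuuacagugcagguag
miR-20a-5p: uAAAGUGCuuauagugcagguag
miR-302b-3p: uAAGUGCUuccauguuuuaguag
The 3 loci that yield the same miR-9, a regulator of neural progenitors, were all well above the reference. Mir9-1, whose 5p arm lies on the plus strand at chr3:88215613-88215635, read 9.70, 9.55 and 10.40, Mir9-2 averaged 8.30 and Mir9-3 6.40. The miR-181 loci share the seed ACAUUCA: Mir181b-1 (7.59), Mir181d (7.45) and Mir181c (6.73) were well above, Mir181b-2 (6.26) and Mir181a-2 (6.19) above, and Mir181a-1 at or below (3.72). Mir92b, known from neural progenitors, was well above at 7.66. Mir219a-1 (5.93) and Mir219a-2 (5.57), of the oligodendrocyte lineage, were above but not well above. Of the proliferation-linked cluster on chromosome 14, Mir18 was above on every array (5.77, 5.97 and 6.59), and Mir17, Mir19a and Mir20a passed on replicate 3 only, with 3.53, 4.10 and 5.53 at Mir19a. All 4 were highest on replicate 3. The neuronal miR-124 gave 5.54 at Mir124a-2 and 1.39 at Mir124a-3. The pluripotency loci Mir302a, Mir302b, Mir302c and Mir302d (1.96 to 2.63), the liver locus Mir122 (3.89) and the muscle locus Mir1a-1 (2.06) were at or below the reference. Over all 478 microRNA loci, 122 (25.5%) were above and 62 (12.97%) well above, against 59.0% and 45.5% of all genes. For the genes of other tissues these shares were 25.2% and 2.8%.

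Promoter sequence differed along the scale of levels. The measure was the observed over expected number of CG dinucleotides in the 300 bases from 250 upstream to 50 downstream of the start in RefSeq (GRCm38.p6), for protein-coding genes; a ratio of at least 0.6 is the usual mark of a CpG-rich promoter. Of 9872 genes above the reference with a promoter listed, 70.4% reached it, and of 7914 genes well above, 77.4%, against 49.7% of all 15358 genes with a promoter listed. Of 4656 genes at or below the reference 9.97% did, and 13% once olfactory and vomeronasal receptor genes were left out. With the genes above the reference cut into 4 groups of equal number by level, the share was 83.6% in the brightest group, 80.2% in the next and 71.2% in the one after; for the dimmest group the check is void, since a promoter was listed for 78.1% of its genes, under the 80% set as the least. For the 2542 genes with several listed starts, the CpG ratio was averaged over starts, and a motif counted if any start held it. Of 4 motifs searched on both strands, TATAAA was in promoters of 8.63% of genes above the reference and 26.5% of those at or below. Of all genes with a promoter listed, 14.4% had it. The GC box GGGCGG was in 68.8% and 17.3% (51.8% of all), the E-box CACGTG in 11.7% and 4.73% (9.40% of all), and CCAAT in 42.6% and 41.3% (41.9% of all). The GC box and the E-box contain CG themselves, so these shares are not separate from the CpG count.

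The 250 upstream bases of 4 genes, picked after their values were seen, show both kinds; capitals mark CG dinucleotides, and each sequence runs 5′ to 3′ on the strand of its gene.
Sox2: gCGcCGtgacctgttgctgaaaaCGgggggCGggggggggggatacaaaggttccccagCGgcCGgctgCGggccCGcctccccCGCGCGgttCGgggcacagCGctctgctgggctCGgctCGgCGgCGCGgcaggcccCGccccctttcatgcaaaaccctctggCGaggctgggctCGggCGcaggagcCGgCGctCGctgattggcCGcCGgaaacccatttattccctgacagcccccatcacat
Olig2: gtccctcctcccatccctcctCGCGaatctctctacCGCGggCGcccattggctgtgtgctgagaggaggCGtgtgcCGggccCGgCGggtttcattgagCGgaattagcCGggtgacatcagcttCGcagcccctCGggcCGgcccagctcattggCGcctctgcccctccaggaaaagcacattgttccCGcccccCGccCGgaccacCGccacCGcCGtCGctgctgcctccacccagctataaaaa
Fabp7: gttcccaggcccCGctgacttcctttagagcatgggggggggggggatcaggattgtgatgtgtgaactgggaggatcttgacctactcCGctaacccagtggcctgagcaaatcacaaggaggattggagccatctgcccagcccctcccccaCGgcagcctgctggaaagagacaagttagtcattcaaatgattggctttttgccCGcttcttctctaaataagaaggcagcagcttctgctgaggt
Dcx: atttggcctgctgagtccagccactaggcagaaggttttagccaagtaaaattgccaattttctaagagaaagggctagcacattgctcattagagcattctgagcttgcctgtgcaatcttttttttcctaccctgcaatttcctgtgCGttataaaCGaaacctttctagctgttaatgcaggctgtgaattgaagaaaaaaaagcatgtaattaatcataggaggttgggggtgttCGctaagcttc
Sox2 (chr3:34649745-34649994, plus strand) holds 27 CG dinucleotides in this stretch and Olig2 (chr16:91225300-91225549, plus strand) 22, along with a TATAAA near its start. Fabp7 (chr10:57784673-57784922, plus strand) holds 4 although its signal ranks 11th of all genes, so a CpG-rich promoter is not shared by every bright gene. Dcx (chrX:143933220-143933469, minus strand, the first of 2 listed starts) holds 3 and a TATAAA.

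The 3 arrays were close over most genes, and replicate 3 stood apart from the other 2. Among genes above the reference the median SD was 0.142, and 299 of 13084 (2.29%) had a range over 1 log2 unit. Replicates 1 and 2 differed by over 1 unit at 12 genes, replicates 1 and 3 at 223, and replicates 2 and 3 at 174; the median absolute differences were 0.109, 0.192 and 0.200. By level, over all genes, the median SD was between 0.147 and 0.184 in each unit up to 7 and then fell, from 0.161 for genes between 6 and 7 to 0.0897 between 12 and 13. Leaving out replicate 3 gave 13225 genes above the reference in place of 13084.

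The genes of cell division were where replicate 3 was highest. Each of the 23 replication genes had its highest value there, with mean deviations from the 3-array mean of -0.39, -0.09 and 0.49 on replicates 1, 2 and 3. Each of the 20 mitosis genes did as well, with -0.35, -0.04 and 0.38. Every gene of both lists was also lowest on replicate 1, so replicates 1 and 2 differed here too. Pole, the catalytic subunit of a replicative polymerase, read 7.88, 8.18 and 9.25, and the anti-apoptotic mitosis gene Birc5 7.19, 7.55 and 8.28. Replicate 3 was also highest for 14 of 17 nucleotide synthesis genes and 7 of 8 E2f genes, such as E2f8 with 8.46, 8.47 and 9.70. In the opposite direction, replicate 3 was lowest for 18 of 23 glycolysis genes above the reference (deviations 0.23, 0.08 and -0.31), for 18 of 23 astrocyte genes (0.03, 0.20 and -0.23) and for 21 of 28 respiratory chain genes, where the deviations were small (0.02, 0.10 and -0.12). The Sox family (-0.04, 0.02 and 0.02), ribosomal proteins (-0.02, 0.03 and -0.01) and proteasome subunits (-0.02, 0.03 and -0.01) lay near the centre on every array. Of the other cell types, endothelial genes above the reference had deviations of 0.13, 0.09 and -0.22 and pericyte, smooth muscle and fibroblast genes 0.13, 0.19 and -0.32, with replicate 3 lowest for 3 of 6 and 5 of 7, while microglial genes had 0.07, -0.16 and 0.09. The labels record nothing that sets replicate 3 apart, and the part of these other cells in the differences was not tested.

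**Figure D5:**
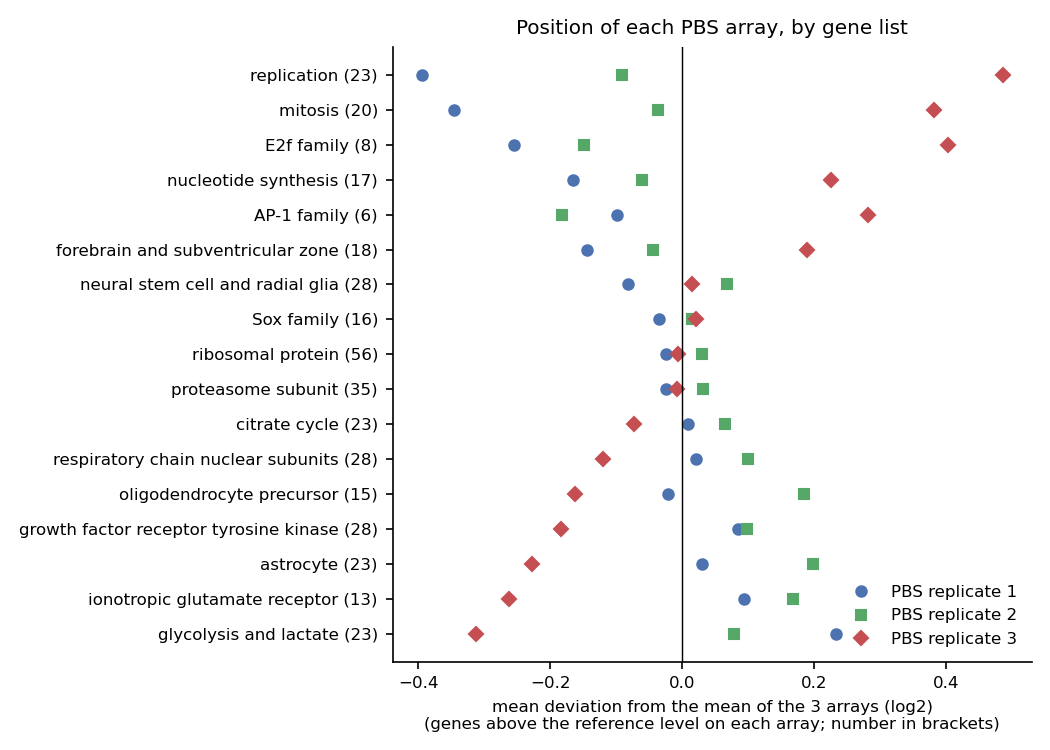
Mean deviation of each PBS array from the mean of the 3, in log2 units, for 17 gene lists chosen after their values were seen to show both directions and the centre; only members above the reference on all 3 arrays enter, with their number in brackets. Replicate 3 lies at 0.49 for replication and at -0.31 for glycolysis, with replicate 1 on the opposite side in both.

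Single genes with the largest SD showed the same array apart. Of the 20 with the largest SD among genes above the reference, 16 had replicate 3 as the array farthest from the middle value; the others were Rab3b, Ajap1, Gria1 and H60b. The zinc transporter Slc39a12 read 8.01, 8.28 and 6.00, and Rtkn2 7.43, 7.75 and 9.47. The death receptor Fas read 8.29, 8.23 and 6.49, the Notch ligand-like gene Dner 10.08, 10.15 and 8.35, the immediate early gene Fosb 8.18, 7.95 and 9.82, and the glutathione transferase Gstt1 9.71, 9.93 and 8.12. For Fas, Dner and Gstt1, replicates 1 and 2 lay close together with replicate 3 below both, while Fosb had replicate 3 above both. Igfbp5 (9.78, 9.71 and 8.05), Pla2g7 (10.30, 10.57 and 8.88) and Gria1 (7.92, 8.96 and 7.09) were lowest on replicate 3 as well, as were Rbm46, Cdh19, Tlr1, Rasgrp1, Ckmt1 and Ajap1. The noncoding gene Dleu2 (6.62, 6.29 and 8.55), Zfp36, which speeds the decay of messages (7.37, 7.71 and 9.00), and Dscc1, a replication factor (5.43, 5.97 and 7.10), were highest there. Rab3b, a vesicle GTPase, was highest on replicate 2 with 7.50, 9.20 and 6.76, and H60b, a ligand of natural killer cell receptors, lowest there with 8.64, 6.97 and 8.14.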

How the data were processed

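RNA of 3 PBS neurosphere cultures was read on Affymetrix Mouse Gene 2.0 ST arrays. The deposited table holds log2 values per probe set, made by the authors with Partek 6.6 per the submitters' processing notes; that they are log2 follows from their range, while normalisation, summary method and background correction are not stated in any source used here. How these set the low values bears on every reading near the reference level.

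Of 41345 probe sets 23521 were paired with 1 gene in the platform annotation, 1814 with several and 16010 with none; symbols were updated through gene IDs of RefSeq GRCm38.p6 for 23328. A gene with several probe sets (1082 genes) took the one with the highest mean over the 6 arrays. Of 1034 listed symbols 942 were measured. The arrays, the lists and the reference were chosen with earlier results of these data known, and the microRNA loci and shown promoters after their values were seen.

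Genes were named from among the 30 genes with the highest mean, the 6 markers, the 4 highest and 2 lowest of each list, all members of lists with 5 or fewer on one side, isozymes and receptors, and the 20 genes with the largest SD among those above the reference (small RNAs and gene models left out). The promoter table was checked for strand on 1491 of 1491 gene pairs. Lists and counts were computed with Python 3.11.15, numpy 2.4.6 and pandas 2.3.3, and the calls were tested on simulated data. The number of arrays, 3, limits the precision. Alternatives were other percentiles and families for the reference, a margin, other probe sets, 2 scalings and leaving out each array.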

Additional observations from a re-analysis of the deposited data

How the results depend on the processing

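The number of genes above the reference level, 13084, ranged from 8743 with keratin associated protein genes as the reference to 15032 with the 90th percentile of olfactory receptor genes. The genes at or below the reference level numbered 12530 with the keratin associated protein genes against 7723. Of 73 lists, 49 had most of their members above the reference; 29 did with the keratin associated protein reference and 32 with the margin of 1 log2 unit. Genes above the reference with a range over 1 log2 unit numbered 299, and 12 to 223 with an array left out, 12 being the count without replicate 3 and 174 that without replicate 1. CpG-rich promoters made up 70.4% of genes above the reference and 77.4% with the margin, and 9.97% of genes at or below it and 13% without olfactory and vomeronasal receptors. The causes were not tested. Of 949 list counts under the alternatives 803 stayed within 1.5 times the main count, 111 were lower and 35 higher by more. Of the 30 brightest genes 21 remained with the mean or the lowest probe set of a gene, 29 without replicate 3, and all 30 under the other settings tried. No paired analysis was possible because only 1 group was described.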

Other observations

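Of the 16010 probe sets with no gene in the platform annotation, 6067 (37.9%) lay above the reference on all 3 PBS arrays and 3473 of these well above it; they are not named here. By kind of gene, 66 of 80 small nucleolar RNAs were above the reference, against 473 of 1926 long noncoding RNAs and 12174 of 18961 protein-coding genes. The microRNA loci with the highest signal besides Mir5099 were Mir449b (11.57), Mir703 (11.10) and Mir692-1 (10.73).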
